A study of Mus musculus with 6 samples.

Results

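Interleukin-12 and its relatives, interleukin-15 and interleukin-18 are the cytokines by which macrophages and dendritic cells instruct natural killer cells and T cells, and 10 of their genes were followed in mouse macrophages given interferon-gamma (IFN-γ). The 10 genes were taken by symbol from the 36706 genes or transcribed features listed in each table: Il12a, Il12b, Il23a, Il27, Ebi3, Il12rb1, Il15, Il15ra, Il18 and Il18bp. All 10 were listed, each as a single entry. RNA was sequenced from macrophages that had been grown out of the bone marrow of wild-type (WT) mice. There were 3 libraries of cells given IFN-γ for 3 h and 3 libraries of untreated cells, also labelled 3 h. Both groups had been grown in 20 ng/mL of the growth factor M-CSF and 10% serum. No source used here gives the dose of IFN-γ or the strain and age of the mice. Total counts ran from 28133342 to 34233607 per library. The labels do not say whether replicates are separate mice or cultures, so each p-value measures the spread between these libraries, which may be technical.

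As background, the IL-12 family is built from shared parts. Il12b encodes a soluble receptor-like chain that pairs with the Il12a product to make IL-12 and with the Il23a product to make IL-23. Ebi3 encodes a related chain that pairs with the Il27 product to make IL-27 and, mainly in regulatory T cells, with the Il12a product to make IL-35. The receptors are shared too: the Il12rb1 chain serves both IL-12 and IL-23. IL-15 is handed to neighbouring cells while bound to its own receptor chain, encoded by Il15ra, on the surface of the cell that makes it. IL-18 is stored as a precursor that caspase-1 cuts, and is held in check outside the cell by a soluble decoy encoded by Il18bp.

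For these genes, promoter windows of 250 bases before to 50 bases after a gene start were taken from RefSeq on build GRCm38.p6. They were found for 6 of the 10 genes: Ebi3, Il12a, Il12b, Il15ra, Il18 and Il18bp, with 8 windows in all. Named only are Il12rb1, Il15, Il23a and Il27. Each window was searched on both strands for 4 motifs of interferon or inflammatory signalling: the gamma-activated sequence (GAS) as TTCNNNGAA, a short motif of interferon regulatory factors, GAAANNGAA, the core of the interferon-stimulated response element, which is that motif with an A after it, and the NF-κB consensus. The short motif thus lies within the longer core, and it was added after the windows had been read. The following 4 windows are shown because they belong to the gene that rose most among those with a window (Il15ra, with 2 starts), the gene that rose least (Ebi3) and an induced gene with no match (Il18bp). Capitals mark the motif matches, and each sequence runs 5′ to 3′ along the gene.
Il15ra, first start, chr2:11705043-11705342, plus strand: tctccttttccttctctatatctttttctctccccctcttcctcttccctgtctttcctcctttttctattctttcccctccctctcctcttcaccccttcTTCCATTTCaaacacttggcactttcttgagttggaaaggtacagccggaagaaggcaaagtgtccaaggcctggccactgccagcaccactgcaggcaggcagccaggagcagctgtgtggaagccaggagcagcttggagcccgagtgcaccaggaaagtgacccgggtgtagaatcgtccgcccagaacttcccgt
Il15ra, second start, chr2:11705462-11705761, plus strand: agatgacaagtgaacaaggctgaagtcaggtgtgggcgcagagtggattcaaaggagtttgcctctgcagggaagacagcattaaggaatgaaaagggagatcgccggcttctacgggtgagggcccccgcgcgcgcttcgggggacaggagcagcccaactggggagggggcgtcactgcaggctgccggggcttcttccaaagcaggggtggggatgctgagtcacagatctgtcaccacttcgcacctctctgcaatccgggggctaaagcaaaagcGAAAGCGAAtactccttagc
Ebi3, chr17:55952373-55952672, plus strand: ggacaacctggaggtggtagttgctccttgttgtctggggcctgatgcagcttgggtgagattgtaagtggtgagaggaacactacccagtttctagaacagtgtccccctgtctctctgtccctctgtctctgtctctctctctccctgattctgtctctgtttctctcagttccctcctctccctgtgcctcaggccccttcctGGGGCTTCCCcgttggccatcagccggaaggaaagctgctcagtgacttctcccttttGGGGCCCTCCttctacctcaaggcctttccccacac
Il18bp, chr7:102018183-102018482, minus strand: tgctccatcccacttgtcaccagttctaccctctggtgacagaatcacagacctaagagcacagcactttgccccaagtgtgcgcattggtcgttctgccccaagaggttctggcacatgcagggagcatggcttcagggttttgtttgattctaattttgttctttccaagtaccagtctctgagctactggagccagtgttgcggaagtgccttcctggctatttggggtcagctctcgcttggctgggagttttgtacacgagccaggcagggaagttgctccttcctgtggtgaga
In both Il15ra windows the capitals are the shorter interferon regulatory factor motif, from -149 to -141 on the opposite strand in the first and from 31 to 39 on the gene's own strand in the second, counted from the start as 1. In the Ebi3 window they are 2 matches to the NF-κB consensus, from -44 to -35 and from 15 to 24. None of the 8 windows held GAS or the longer core, and the other 5 windows held no match to any of the 4 motifs. Of all 32851 promoter windows of this length, 8.30% held GAS, 3.44% the longer core, 8.56% the shorter form and 8.46% the NF-κB consensus. A match in letters is a description and not evidence of binding, and the absence of one says only that these letters are not in the window.

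With IFN-γ 8 of the 10 genes rose, and none of those tested fell. A gene was called where its p from the quasi-likelihood test of edgeR, adjusted over all 12968 genes tested, was under 0.05. The largest rises were those of Il27 (28.1-fold), Il12rb1 (18.2-fold), Il15ra (10.96-fold) and Il15 (5.50-fold), and the smallest was that of Ebi3 (1.33-fold). Of all genes tested, 36.4% were called, 19.6% higher and 16.8% lower. At 2-fold or more, 7 of the 10 were called higher, while over all genes tested 6.17% were called higher and 1.94% lower. The IFN-γ libraries all lay above the untreated ones for 8 of the 10, as they did for 25.9% of all genes tested, and in either direction the groups did not overlap for 50.1%. With other scalings the split over all genes moved: it was 2539 higher and 2176 lower with TMM, 1803 higher and 4097 lower (upper quartile) or 1666 higher and 4520 lower (total counts). The remaining pair, Il12a and Il23a, had too few counts to be tested. Il12b was tested only because its counts passed the filter in the 3 IFN-γ libraries and in none of the untreated ones, so to be tested it had to differ. Its place in the counts above is therefore no support for a rise. Without the filter 7 of the 10 genes were called higher, and Il12b was not (adjusted p = 0.0550). In bulk RNA, more cells of a kind and more RNA per cell cannot be told apart.

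**Figure D1:**
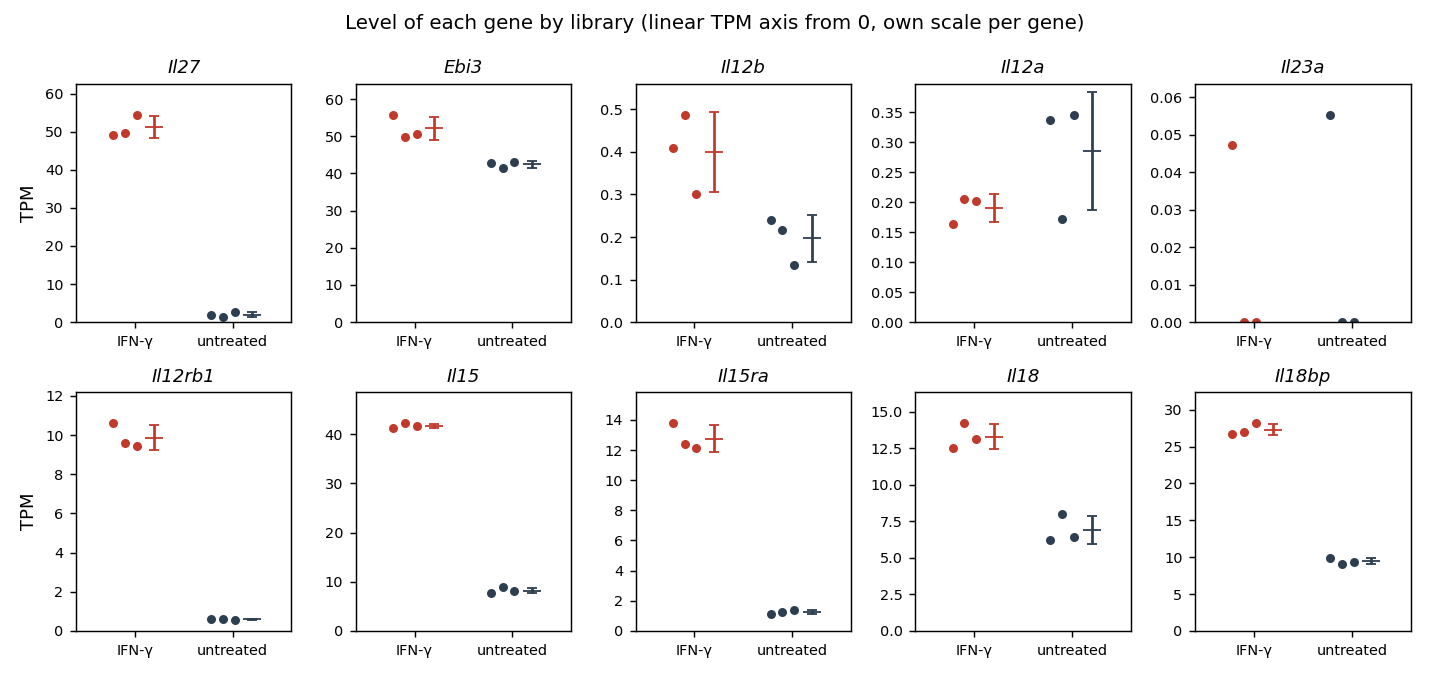
Level of each of the 10 genes in each library, in TPM on a linear axis from 0 with its own scale per gene; points are libraries, and the bars are the mean ± SD of 3 libraries (left out for Il23a, which has at most 1 count in a library). The IFN-γ points lie above the untreated points for 8 genes, from Il27 (mean 51.1 against 1.97 TPM) to Ebi3 (52.1 against 42.4 TPM), and overlap them for Il12a and Il23a.

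The IL-27 pair showed the greatest contrast between partners. Levels are given as TPM, counts per length scaled to the same sum in every library, which allows genes to be compared within a library. Il27, which encodes the cytokine-like chain of IL-27, stood at 49.2, 49.7 and 54.4 TPM in IFN-γ libraries 1, 2 and 3, against 1.90, 1.36 and 2.67 TPM in untreated libraries 1, 2 and 3. All IFN-γ libraries lay far above all untreated ones. The counts behind these levels were 912, 921 and 1029 with IFN-γ and 30, 24 and 47 untreated. With IFN-γ the level of Il27 exceeded that of 93.1% of listed genes, against 72.5% in untreated cells. The log2 fold change, from counts scaled by TMM, was 4.81 ± 0.16 (SE, n = 3 each). Its adjusted p was 1.46e-07, and it ranked 43rd of the 12968 genes. Ebi3, the gene of the partner chain, had 55.8, 49.9 and 50.6 TPM in IFN-γ libraries, against 42.8, 41.4 and 43.1 TPM in untreated libraries. The groups did not overlap, but the rise was small: 0.41 ± 0.07 on the log2 scale (adjusted p = 0.00185). Ebi3 was thus the most abundant of the 10 genes in both groups. In untreated cells the next gene, Il18bp, stood at 9.42 ± 0.400 TPM (SD, n = 3), while with IFN-γ the ranges of Ebi3 and Il27 overlapped.

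Within a library the ratio of counts per kilobase between partner genes does not depend on how libraries are scaled. It does depend on the length taken for each gene, here all its exon bases, but the difference between groups does not. The ratio of Ebi3 to Il27 was 1.13, 1.00 and 0.929 in IFN-γ libraries, against 22.2, 29.8 and 16.0 in untreated libraries. The partner transcripts were thus near equal after IFN-γ, while Ebi3 was in large excess without it. The ratio was lower with IFN-γ by a log2 difference of -4.43, that is 21.6-fold, and the groups did not overlap. In an exact two-sided permutation test over the 6 libraries its p was 0.1, the smallest that 3 libraries against 3 can give. The 4 ratios tested shared this p, also after adjustment over them.

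**Figure D2:**
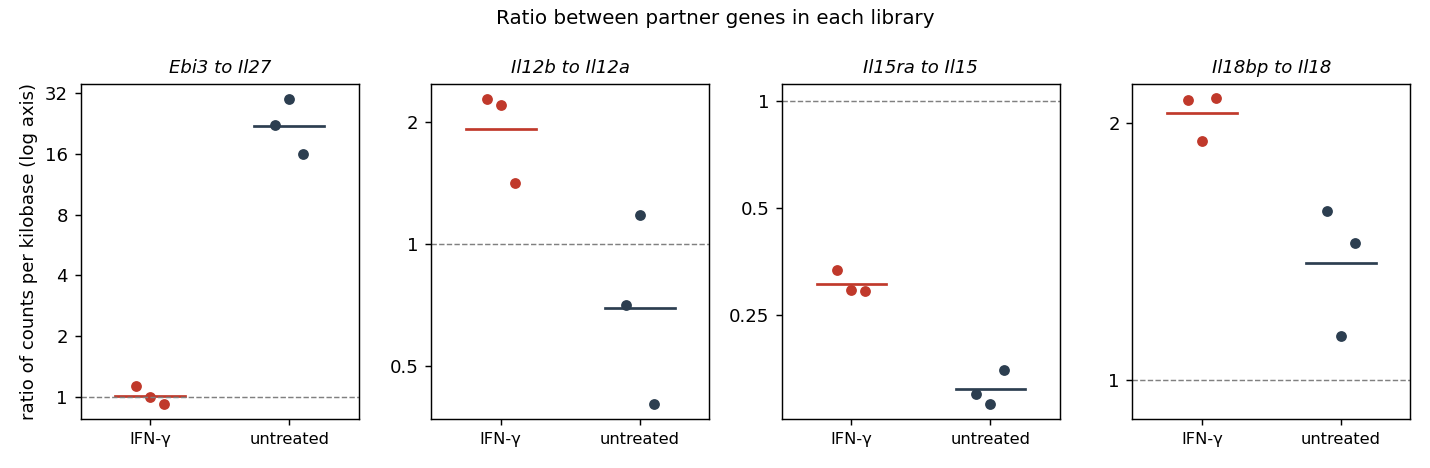
Ratio of counts per kilobase between partner genes in each library, on a log2-spaced axis; points are libraries, solid lines the geometric mean of 3 libraries and the dashed line equal levels. Ebi3 to Il27 lies near 1 with IFN-γ (0.929 to 1.13) and between 16.0 and 29.8 in untreated cells, while the other 3 ratios are higher with IFN-γ.

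The genes of the IL-12 and IL-23 chains stayed near the limit of detection in both groups. Il12b, the chain shared by IL-12 and IL-23, had 16, 19 and 12 counts in IFN-γ libraries, against 8, 8 and 5 counts in untreated libraries. These counts correspond to 0.400 ± 0.0933 TPM with IFN-γ and 0.197 ± 0.0552 TPM untreated (SD, n = 3 each). It was higher by 1.13 ± 0.34 on the log2 scale (adjusted p = 0.0331). As Il12b passed the filter only through the IFN-γ libraries, this p is no support for a rise. The call was lost in 7 of 16 other analyses. Among them were the fit without the filter (adjusted p = 0.0550), DESeq2 (0.103) and omission of IFN-γ replicate 1 or 2 or untreated replicate 3 (0.0829, 0.128 and 0.122). Over those analyses its adjusted p ran from 0.0306 up to 0.128, apart from the test against 2-fold. Il12a, the chain that completes IL-12, had 4, 5 and 5 counts with IFN-γ, against 7, 4 and 8 counts untreated. The groups overlapped, and without the filter its log2 fold change was -0.44 ± 0.52 (adjusted p = 0.593). Il23a, the chain that completes IL-23, had 1, 0 and 0 counts in each group, under the floor of 3 counts that a count of 0 allows. Expressed as CPM, the counts of a library relative to its size, that floor is 0.089 to 0.101. The ratio of Il12b to Il12a was 2.28, 2.21 and 1.42 in IFN-γ libraries, against 0.706, 1.18 and 0.403 in untreated libraries, and rests on these few counts.

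Receptor chains of the family moved unequally. Il12rb1, the chain shared by the IL-12 and IL-23 receptors, had 10.6, 9.57 and 9.46 TPM in IFN-γ libraries, against 0.606, 0.615 and 0.543 TPM in untreated libraries. The libraries of each group lay close together and the groups were far apart, 4.18 ± 0.10 on the log2 scale (adjusted p = 2.37e-08). Its usual partner in the IL-12 receptor, Il12rb2, had 7.41, 6.25 and 5.77 TPM with IFN-γ, against 4.25, 3.21 and 4.10 TPM untreated, a log2 fold change of 0.87 ± 0.09 (adjusted p = 0.000187). By TPM, Il12rb1 was therefore the more abundant of these partners in each IFN-γ library and the less abundant in each untreated library. The order with IFN-γ depends on the lengths used. In IFN-γ libraries 1, 2 and 3 the counts were 923, 833 and 840 for Il12rb1, against 961, 810 and 763 for Il12rb2. Il23r, the partner of Il12rb1 in the IL-23 receptor, had 7, 2 and 8 counts with IFN-γ and 0 in each untreated library, too few to test. The receptor of IL-27 showed no detectable change in either chain. Il27ra had 0.849 ± 0.148 TPM with IFN-γ and 0.776 ± 0.263 TPM untreated, a log2 fold change of 0.26 with a 95% interval from -0.31 to 0.82 (adjusted p = 0.465). Il6st, the signalling chain shared with the IL-6 receptor, had 23.7 ± 4.01 TPM with IFN-γ and 24.1 ± 7.39 TPM untreated, a log2 fold change of 0.11 with an interval from -0.30 to 0.52 (adjusted p = 0.682). The direction for Il6st turned with scaling by upper quartile or total counts, and without IFN-γ replicate 1 (-0.021) or untreated replicate 2 (-0.078).

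**Figure D3:**
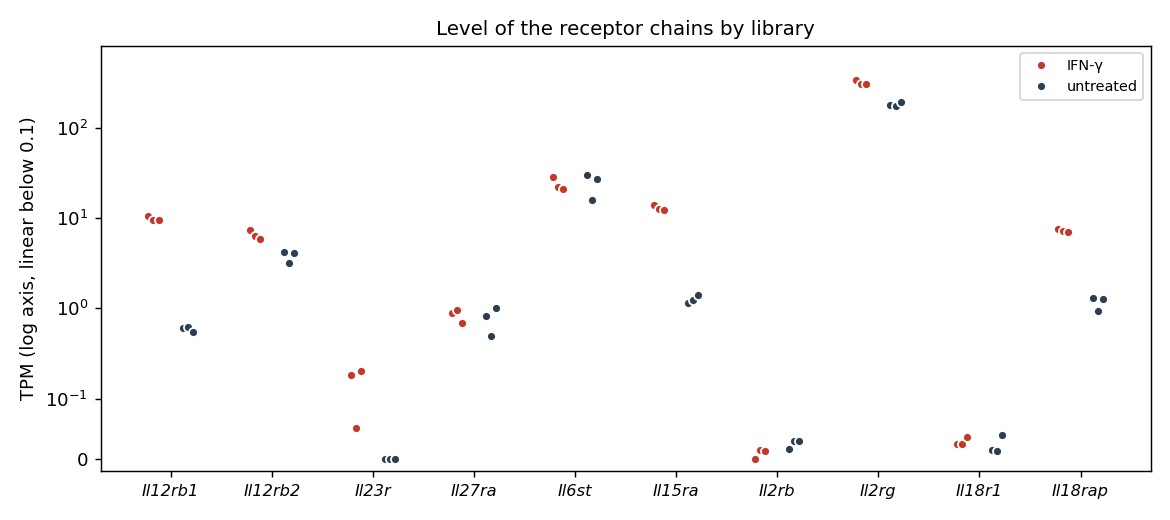
TPM of the receptor chains of IL-12, IL-23, IL-27, IL-15 and IL-18 in each library, on a log axis that is linear below 0.1 TPM; each point is a library, IFN-γ left and untreated right. Among the tested chains Il12rb1, Il15ra and Il18rap rise by the widest margins, while Il2rb and Il18r1 stay below 0.1 TPM in all 6 libraries.

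Il15 and its presenting receptor rose together. Il15 had 41.3, 42.2 and 41.7 TPM in IFN-γ libraries, against 7.71, 8.83 and 8.05 TPM in untreated libraries. The IFN-γ libraries differed by less than 1 TPM and stood well clear of the untreated ones. The rise was 2.46 ± 0.10 on the log2 scale (adjusted p = 6.22e-07). Il15ra, the chain that carries IL-15 to the cell surface, had 13.8, 12.4 and 12.1 TPM with IFN-γ, against 1.14, 1.23 and 1.40 TPM untreated. Its log2 fold change was 3.45 ± 0.09 (adjusted p = 5.14e-08), 93rd among all genes tested. Il15ra rose more than its ligand, so the ratio of Il15ra to Il15 was 0.333, 0.294 and 0.291 in IFN-γ libraries, against 0.149, 0.140 and 0.175 in untreated libraries. This is a log2 difference of 0.99, or 1.98-fold, with groups that did not overlap and an exact permutation p of 0.1. Il15 transcripts remained in excess of Il15ra in all 6 libraries. Of the chains through which responding cells read IL-15, Il2rg, the common gamma chain, had 313 ± 16.8 TPM with IFN-γ and 181 ± 9.93 TPM untreated (SD, n = 3 each). This is a rise of 0.91 ± 0.06 on the log2 scale (adjusted p = 7.84e-06). Il2rb, the beta chain, had 0, 1 and 1 counts with IFN-γ, against 1, 2 and 2 counts untreated, under the floor in every library.

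The IL-18 arm rose on both its sides, the cytokine and its inhibitor. Il18 had 12.5, 14.2 and 13.1 TPM in IFN-γ libraries, against 6.24, 8.03 and 6.46 TPM in untreated libraries, a log2 fold change of 1.05 ± 0.15 (adjusted p = 0.000845). The groups did not overlap, and untreated replicate 2 was the highest of its group. Il18bp, the decoy that binds IL-18, had 26.7, 27.0 and 28.1 TPM with IFN-γ, against 9.85, 9.05 and 9.36 TPM untreated, a log2 fold change of 1.65 ± 0.07 (adjusted p = 6.92e-07). The ratio of Il18bp to Il18 was 2.13, 1.90 and 2.14 in IFN-γ libraries, against 1.58, 1.13 and 1.45 in untreated libraries. By counts per kilobase the inhibitor thus exceeded the cytokine in all 6 libraries, and by more with IFN-γ. The log2 difference was 0.59, with an exact permutation p of 0.1. The excess rests on the lengths used, 4609 bases for Il18bp and 2593 for Il18, while the difference between groups does not. Il18bp shares 29.4% of its exon bases with Rnf121 on the same strand, so part of its count is uncertain. Rnf121, a ubiquitin ligase gene, had 523, 532 and 512 counts with IFN-γ, against 419, 418 and 519 counts untreated, fewer than Il18bp in all 6 libraries, and its log2 fold change of 0.20 ± 0.07 was not called (adjusted p = 0.0664). On the receiving side, Il18rap, the accessory chain of the IL-18 receptor, had 7.52, 7.15 and 7.07 TPM with IFN-γ, against 1.31, 0.931 and 1.27 TPM untreated, a log2 fold change of 2.75 ± 0.09 (adjusted p = 1.85e-07). The ligand-binding chain Il18r1 had 2, 2 and 3 counts with IFN-γ, against 1, 1 and 3 counts untreated, at or under the floor.

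**Figure D4:**
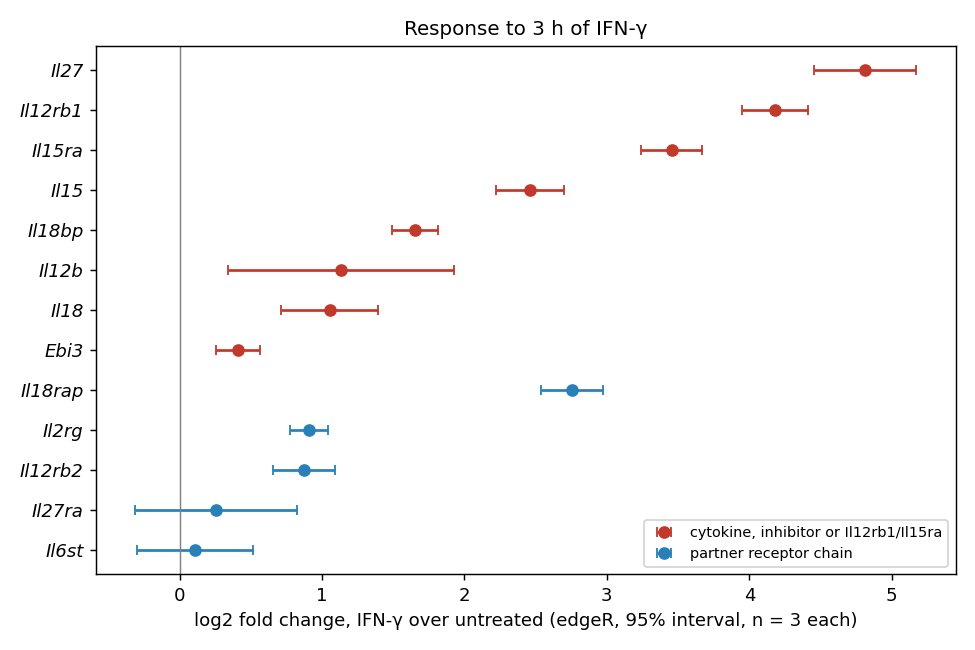
Log2 fold change (IFN-γ over untreated) with its 95% interval from edgeR, for the 8 tested genes in red and the 5 tested partner receptor chains in blue. Il27 lies highest at 4.81, Il12b has the widest interval of the red genes, from 0.34 to 1.92, and the intervals of Il27ra and Il6st span 0.

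Around these genes, a list of 34 genes of receptor chains, signalling, processing and transcription was examined, and 30 were tested. Of these 25 rose and none fell, 12 of them at 2-fold or more. Of all genes tested, 19.6% were called higher, 16.8% lower and 6.17% higher at 2-fold or more. The median log2 fold change was 0.84 on the list against -0.01 over all genes tested. As the list was chosen with earlier results of these data known, its counts are a description. Besides Il18rap, the rises of 2-fold or more included those of Irf1 (4.83 ± 0.06), Casp4 (2.82 ± 0.09), Irf8 (2.03 ± 0.05), Stat3 (2.02 ± 0.08), Nlrp3 (1.99 ± 0.10), Jak2 (1.79 ± 0.07), Casp1 (1.60 ± 0.07), Nfkb1 (1.28 ± 0.06), Rel (1.09 ± 0.10) and Myd88 (1.04 ± 0.06), as log2 fold changes. Irf1, Irf8 and Rel encode transcription factors known to act at Il12 promoters, and Jak2 and Stat3 carry signals of this family's receptors. Casp1, which cuts the IL-18 precursor, reached 457 ± 8.61 TPM with IFN-γ, against 163 ± 4.12 TPM untreated (SD, n = 3 each). Its activating sensor gene Nlrp3 had 137, 120 and 116 TPM with IFN-γ, against 38.2, 26.5 and 37.9 TPM untreated. Stat4, the factor through which IL-12 signals in T cells, was at 2.27 ± 0.0773 TPM with IFN-γ and 1.60 ± 0.236 TPM untreated, a log2 fold change of 0.63 ± 0.12 (adjusted p = 0.00417). The 5 tested genes without a call were Il27ra, Il6st, Irak1, Irak4 and Batf3.

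Each of the 8 tested genes had a higher log2 fold change than the tested genes beside or overlapping it on the chromosome. For Il12b this is no support for a rise, as it passed the filter only through the IFN-γ libraries. The differences between neighbours were not tested. The margin was narrowest for Il18 (1.05 ± 0.15), whose overlapping gene Bco2 rose by 0.79 ± 0.20 (adjusted p = 0.0142). Positions are those of the tables, whose build is not named. Il12rb1 lies on chromosome 8, plus strand, from 71261005 to 71276186, with 19 separate exon blocks. Its nearest tested neighbours, Mast3 and Arrdc2, had log2 fold changes of -0.50 ± 0.11 and -0.31 ± 0.09, both called lower (adjusted p = 0.00815 and 0.028). Il27 lies on chromosome 7, minus strand, from 126188181 to 126194197, between Cln3 (0.47 ± 0.05) and Nupr1 (1.19 ± 0.12), both called higher. It shares 9.83% of its exon bases with Apobr on the opposite strand, whose log2 fold change was 0.32 ± 0.06. Apobr had 6876, 6142 and 6119 counts with IFN-γ and 4827, 4700 and 5622 untreated, more than Il27 in every library. How counting handled strand is not known, so part of the Il27 count is uncertain, above all its few untreated counts. Il15ra lies on chromosome 2, plus strand, from 11709992 to 11738796, beside Il2ra, the related alpha chain of the IL-2 receptor, which was at 0.802 CPM with IFN-γ and 0.324 CPM untreated, a log2 fold change of 1.31 ± 0.34 (adjusted p = 0.0171). Il23a, near silent here, lies 3287 bases from Stat2, an interferon signalling gene that rose by 1.82 ± 0.08 (adjusted p = 1.16e-06). On its other side, at 1153 bases, the log2 fold change of Pan2 was 0.17 ± 0.13 and was not called (adjusted p = 0.349). Of the remaining genes, Ebi3 lies on chromosome 17, plus strand, from 56259623 to 56264022, and Il15 on chromosome 8, minus strand, from 83058253 to 83129883. Il18 lies on chromosome 9, plus strand, from 50466000 to 50493141, and Il18bp on chromosome 7, minus strand, from 101664281 to 101669699. Il12a lies on chromosome 3, plus strand, from 68597977 to 68605883, Il12b on chromosome 11, plus strand, from 44290890 to 44305504, and Il23a on chromosome 10, minus strand, from 128132009 to 128133953. Ebi3 shares 23.1% of its exon bases with Gm16712 on the opposite strand, which had at most 2 counts in a library.

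**Figure D5:**
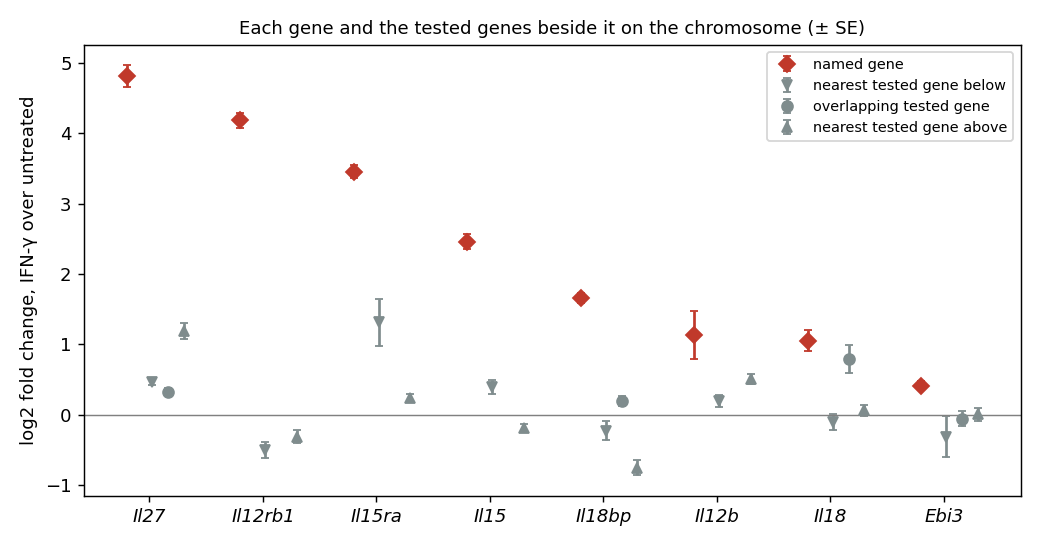
Log2 fold change ± SE (IFN-γ over untreated) of the 8 tested genes (red diamonds) and of the tested genes nearest to or overlapping them in the tables' coordinates (grey; triangles down and up for the lower and higher coordinate side, circles for overlap). Each red point lies above its neighbours, by the widest margin for Il12rb1 (4.18 against -0.50 and -0.31). Il12b passed the filter only through the IFN-γ libraries, so its place is no support for a rise.

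The genes with the profile nearest to the 3 largest responders were found by the root mean square difference of log2 CPM over the 6 libraries, each gene centred on its own mean. The log2 CPM included a prior of 2 counts, which shrinks contrasts at low counts. For Il27 the nearest were Gbp10 (difference 0.138), Ch25h (0.175), which makes 25-hydroxycholesterol, and Socs3 (0.211), a feedback inhibitor of cytokine signalling. Gbp10, an interferon-induced GTPase gene, had 2.16 CPM with IFN-γ and 0.0308 CPM untreated, below the floor. Its log2 fold change was 5.90 ± 0.37, against 4.81 for Il27, so its nearness depends on the prior. For Il12rb1 the nearest were Hcar2 (0.0579), a receptor of hydroxy fatty acids, Tnfsf10 (0.0894), the death ligand TRAIL, and Slamf8 (0.110), a macrophage surface receptor. For Il15ra they were Ifi208 (0.0953), Rasgrp1 (0.106), a Ras activator, and Ccrl2 (0.108), a chemokine-binding receptor. Rasgrp1 had 2.10 CPM with IFN-γ and 0.138 CPM untreated, close to the floor. Its log2 fold change was 3.88 ± 0.23, against 3.45 for Il15ra, so its nearness also depends on the prior.

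The libraries carried macrophage markers in full: Adgre1, Cd68, Csf1r, Itgam, Mertk, Fcgr1, Lyz2 and Cd14 were detected in all 6, with a summed level of 33643 to 34871 TPM with IFN-γ and 35431 to 38252 TPM untreated. Most of that sum was Lyz2, which was not called, while Adgre1, Csf1r and Fcgr1 were called higher and none of the 8 was called lower. Dendritic cells also make IL-12 and IL-27, and their 8 markers summed to between 3.71 and 4.30 TPM with IFN-γ and between 2.10 and 2.25 TPM untreated. Of these, 6 were below 1 TPM in all 6 libraries and none was at 0 throughout, and 3 were called higher (Xcr1, Clec9a and Dpp4) while Flt3 was not, at 0.134, 0.165 and 0.222 TPM with IFN-γ against 0.157, 0.0866 and 0.141 TPM untreated. Neutrophil markers summed to between 532 and 553 TPM with IFN-γ and between 343 and 402 TPM untreated, nearly all from S100a8 and S100a9. Of 7 neutrophil markers, 3 were called higher (S100a8, S100a9 and Ltf) and none lower, while the defining marker Ly6g had at most 2 counts in a library. The part of dendritic cells and neutrophils in the results was not tested. Of 9 T and NK cell markers, Cd3e and Prf1 were at 0 in all 6 libraries, and the list summed to 1.06 to 1.46 TPM with IFN-γ and 1.39 to 1.87 TPM untreated. B cell, mast cell and stromal lists each summed to under 1 TPM in every library, with Fcer1a at 0 in all 6.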

How the data were processed

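RNA was sequenced from 6 libraries of mouse bone marrow-derived macrophages, 3 given IFN-γ and 3 untreated. Per the labels' protocols, Trizol was used for RNA and a KAPA stranded mRNA kit for libraries. HISAT2 and build mm10 come from the submitters' processing notes. No source used here names the counting tool or says how it handled strand and multiply mapped reads. A count, TPM and FPKM stand beside each gene, per the file headers. The deposited counts are whole numbers, not normalized, and were tested. The deposited TPM were used for levels and, recomputed from counts and lengths, differed by at most 7.3e-11. The deposited FPKM were not used. Coordinates do not match RefSeq GRCm38.p6 (1.70% of 35270 symbols had the same start and end), so the tables' build is left unnamed, while promoter windows are RefSeq's on GRCm38.p6.

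Counts were analysed with edgeR 4.0.16 in R 4.3.3: filterByExpr (minimum count 10, minimum total 15), TMM scaling, and the two-sided quasi-likelihood F test. Its p-values were adjusted by the Benjamini-Hochberg method across 12968 genes, and under 0.05 was called. Standard errors come from the size of each log2 fold change over the root of its F. Ratios used counts plus 0.5 per kilobase and exact permutation; the ratio of Il12b to Il23a had too few counts and was not tested. No pair of replicates was alike within sampling noise (chi-square over its degrees of freedom 2.05 to 81.1). In GENCODE M21 transcripts, 9 of the 10 genes shared no 50-base stretch with another gene and Il12rb1 shared 0.239%. Intervals and floors cover counting error only where they rest on counts. The genes and lists were chosen with earlier results of these data known. All 10 genes, the receptor chains and the listed genes called at 2-fold or more were named, with the 3 genes nearest in profile to each of the 3 largest responders; 1 listed gene is not reported here. Stat4, the overlapping genes and the neighbouring genes were chosen after their values were seen. Tried instead were scaling by RLE, upper quartile or total counts, no filter or 5 CPM in 3 libraries, DESeq2 1.42.0, limma-voom (limma 3.58.1), a robust fit, a 0.01 threshold, replicate numbers taken as a block, a null of 2-fold, and omission of each library. Figures used Python 3.11.15 and matplotlib 3.10.9.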

Additional observations from a re-analysis of the deposited data

How the results depend on the processing

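The rises of Il27, Il12rb1, Il15ra, Il15 and Il18bp kept their direction and call under all 17 alternatives, Ebi3 and Il18 under all but the test against 2-fold, while Il12b lost its call in 7 of 16. Without 1 library at a time, 7 to 8 of the 10 genes were called higher and 0 lower, and 23 to 26 listed genes higher and 0 lower. The test against 2-fold called 5 of the 10 genes, 10 listed genes and, over all genes, 506 higher and 55 lower, against 2539 and 2176. Upper quartile scaling called 4097 genes lower and total counts alone 1666 higher and 4520 lower; with them the median over all genes moved by -0.147 and -0.170 (log2). A threshold of 0.01 left 1242 lower. Without 1 library, 1991 to 3174 genes were higher and 1451 to 2793 lower. Il6st turned to -0.037 with upper quartile scaling and -0.066 with total counts, and ran from -0.078 to 0.26 without 1 library; the cause was not tested. The ratio differences ran from -4.66 to -4.21 (Ebi3 to Il27), 1.08 to 1.85 (Il12b to Il12a), 0.92 to 1.08 (Il15ra to Il15) and 0.44 to 0.69 (Il18bp to Il18). Whether the replicate numbers pair the samples was not decided. Equal numbers had correlations of deviations of 0.306, 0.144 and -0.070. IFN-γ replicates 1 and 2 each correlated best with the untreated library of their own number. IFN-γ replicate 3 correlated best with untreated replicate 2, at 0.241. Deviations within a group of 3 libraries depend on each other, so these correlations cannot decide it. With the replicate block 2723 genes were higher and 2327 lower, and 8 of the 10 genes were called higher. Il12b is among these 8, and as it passed the filter only through the IFN-γ libraries, its call is no support for a rise. The log2 ratio of Ebi3 to Il27 differed by -4.43, which the block cannot change. The mean of paired differences always equals the difference of the group means. Counts under 20 per library limit Il12a, Il12b, Il23a, Il23r, Il2rb and Il18r1.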
